A study of Nothobranchius furzeri with 10 samples.

Results

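The 100 genes that took the largest share of RNA-sequencing reads in skin of Nothobranchius furzeri, the turquoise killifish, a fish with a short natural lifespan, are described here. For each library the count of every gene was divided by the library's total count, the shares were averaged over the 10 libraries, and the 100 genes with the highest mean share were taken from 26739 gene identifiers. Because read shares chose these genes, their abundance is a description and not a finding. All fish were males aged 27 weeks, of strain MZM-0410p. In 5 libraries the fish had received rotenone, which blocks complex I of the mitochondrial respiratory chain, at 15 pM, and in 5 they had received the solvent DMSO alone. The labels state neither how long treatment lasted nor any batch. Whether every library is a different fish is also not stated, so a p-value here speaks only for the spread among libraries. Replicate numbers are names only.

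In vertebrate skin the most abundant messenger RNAs usually come from keratin genes of the epidermis, collagen genes of the dermis and the genes of the protein synthesis machinery. The share of reads that a gene takes grows with both the number of its transcripts and their length, so a long gene can rank high with few transcripts. Shares of one library add up to a fixed total, so a gain for some genes lowers the share of all others. The deposited identifiers carry no gene names, and 0 of the 26739 matched an entry of the RefSeq table for NfurGRZ-RIMD1. No role can therefore be given to any gene below, and the skin origin of the libraries could not be checked against marker genes. In bulk tissue, fewer cells of a type and less RNA per cell cannot be told apart.

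Total counts ranged from 18801139 to 33406901 in the rotenone libraries and from 21415012 to 42253397 in the DMSO libraries. The scarcest value among the 100 genes was 51 reads, in 1 gene of 1 library, which carries a counting error of 14.0%.

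The reads were concentrated within the list itself. On average the 100 genes took 34.9% of all reads, and 16 of them held 50% of that. The first 10 genes held 40.2% of the reads on the list. Mean shares ran from 2.72% for the first gene to 0.128% for the last, a 21.3-fold range. The boundary was not a gap: the genes ranked 99 and 100, Nfu_g_1_004314 and Nfu_g_1_021177, had mean shares of 0.129% and 0.128%, and the first 2 genes outside, Nfu_g_1_022358 and Nfu_g_1_003349, each had 0.127%. Of the 100 genes, 59 were among the 100 most abundant in every single library. Counted over all libraries, 162 genes reached the first 100 of at least 1 library, 62 of them not on the list.

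No single gene led all libraries. Nfu_g_1_001437, the gene with the highest mean share, was first in 4 libraries. Its shares were 4.502, 1.52, 1.34, 2.83 and 2.65% in rotenone replicates 1 to 5, against 3.56, 3.84, 3.24, 1.33 and 2.35% in DMSO replicates 1 to 5. The groups overlapped over nearly their whole range, and low values occurred in both. Nfu_g_1_019825 came first in 2 DMSO libraries, replicates 4 and 5, and had the most even share of the first 10 genes. It took 3.66, 2.42, 2.62, 2.38 and 2.29% of reads in the rotenone libraries, against 2.77, 2.37, 2.50, 2.85 and 2.45% in the DMSO libraries. Apart from rotenone replicate 1, all of these values lay between 2.29% and 2.85%. Nfu_g_1_002091 was first in the other 4 libraries, rotenone replicates 2 to 5.

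**Figure D1:**
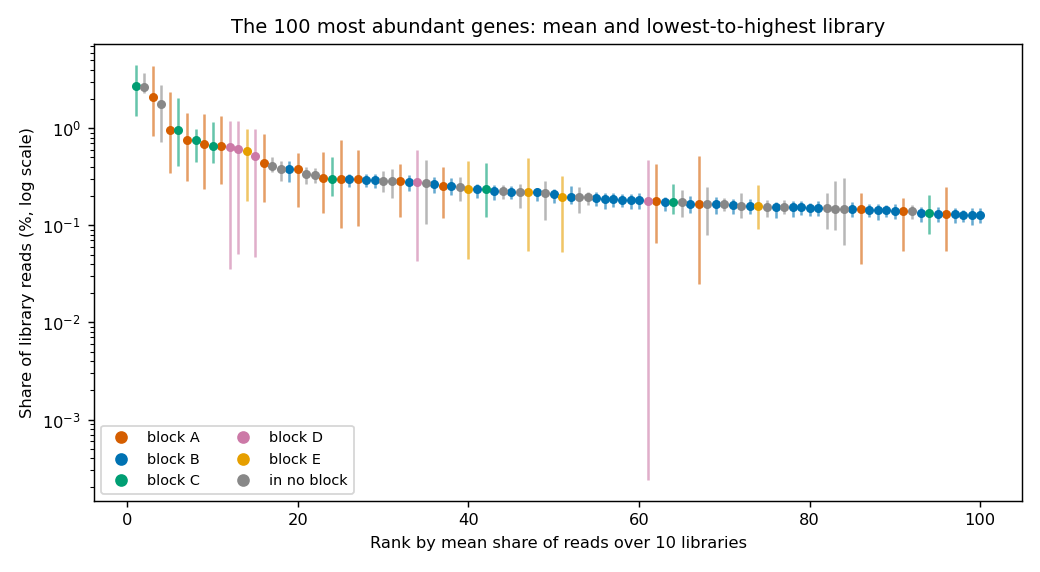
Each point is the mean share of library reads (vertical axis, percent, log scale) of 1 of the 100 genes, ordered by rank (horizontal axis), and each line runs from the lowest to the highest of the 10 libraries; colours mark the blocks described in the text. The mean falls from 2.72% to 0.128%, and the lines are short for block B and long for blocks A and D, where Nfu_g_1_022498 spans 0.000238% to 0.467%.

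The spread between libraries differed widely among the genes of the list. The coefficient of variation (CV, the SD divided by the mean) of a gene's share over the 10 libraries had a median of 15.7% in the 100 genes, against 26.6% in all 18435 tested genes and 24.5% in the genes of rank 101 to 1000. The CV was under 15% in 49 genes and over 50% in 18. Within the rotenone libraries alone the median CV was 15.9%, and within the DMSO libraries it was 13.9%. The steadiest were Nfu_g_1_016692 and Nfu_g_1_007347, with CVs of 9.17% and 9.30%. Nfu_g_1_016692 took 0.153, 0.133, 0.138, 0.108 and 0.129% of reads in the rotenone libraries, against 0.140, 0.128, 0.120, 0.135 and 0.138% in the DMSO libraries. Its lowest value was in rotenone replicate 4, the library with the largest share of reads on the list, 43.6%.

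At the other end stood Nfu_g_1_022498, with a CV of 92.0%. It took 0.366, 0.0778, 0.151, 0.311 and 0.271% of reads in the rotenone libraries, against 0.0153, 0.127, 0.467, 0.000238 and 0.00836% in the DMSO libraries. Its highest and lowest library were both DMSO libraries and differed 1962-fold, from rank 15 in DMSO replicate 3 to rank 14505 in DMSO replicate 4. Nfu_g_1_023319 had the next highest CV, 89.7%. It took 0.0476, 0.173, 0.266, 0.523 and 0.2504% of reads in the rotenone libraries, against 0.0670, 0.131, 0.132, 0.0247 and 0.0574% in the DMSO libraries. Only these 2 of the 100 genes fell outside the 500 most abundant in some library.

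Genes that rose and fell together across libraries were grouped by average-linkage clustering on the Pearson correlation of log2 CPM (CPM, counts relative to the TMM-scaled library total, with a prior count of 2), cut at a correlation of 0.7. A cluster of at least 5 genes is called a block. There were 5 blocks holding 75 of the 100 genes, named A to E in the order of their summed share, and 25 genes lay outside them. The blocks were made from these same values, so what follows describes them and tests nothing. The blocks also differed in median recovered gene length, which was not clustered on, although their lengths overlapped. The median was 918 bases in block B (range 321 to 5518), 1748 in A (330 to 88545) and 2698 in E (1807 to 5085). In block C it was 2855 (1338 to 8522) and in block D 6785 (1344 to 9459).

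**Figure D2:**
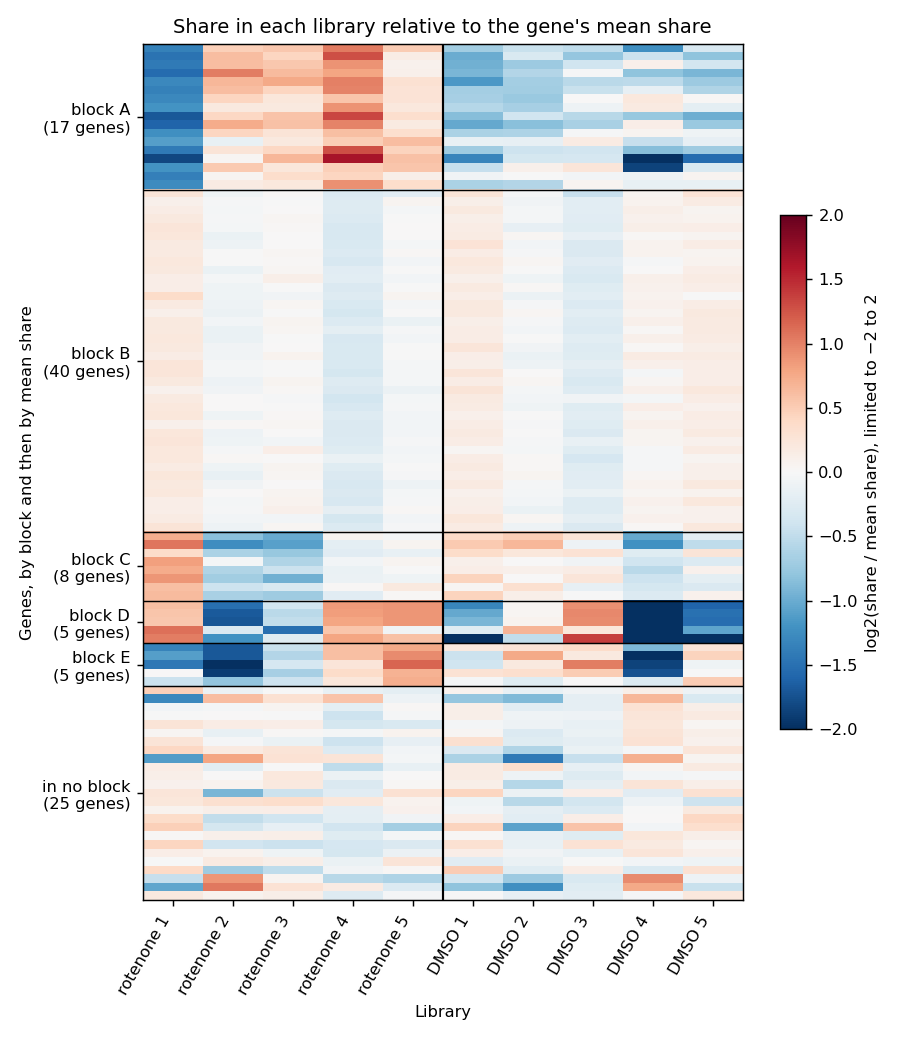
Rows are the 100 genes, grouped by block and ordered by mean share, and columns are the 5 rotenone and the 5 DMSO libraries; colour is log2 of a gene's share in a library over its mean share, limited to the range from −2 to 2. Block A is high in rotenone replicates 2 to 5 and low in rotenone replicate 1, block B is nearly even, and block D is lowest in DMSO replicate 4.

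Block A held 17 genes, 4 of them among the 10 most abundant of the list. Together they took 3.14, 11.9, 11.54, 16.3 and 10.2% of reads in rotenone replicates 1 to 5, against 4.77, 5.79, 6.41, 5.84 and 5.90% in DMSO replicates 1 to 5. Rotenone replicates 2 to 5 stood above all DMSO libraries, and rotenone replicate 1 stood below all of them. The DMSO libraries were close to each other, so the spread of the block was mostly within the rotenone group: 10.6 ± 4.78% in rotenone and 5.74 ± 0.60% in DMSO libraries (SD, n = 5 each). Of the 17 genes, 14 were highest in rotenone replicate 4 and 15 were lowest in rotenone replicate 1, while the other 2 were lowest in DMSO replicate 4.

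The leading gene of block A was Nfu_g_1_002091, rank 3 on the list. Its shares were 0.825, 2.92, 3.06, 4.32 and 2.97% in the rotenone libraries, against 1.29, 1.54, 1.48, 0.894 and 1.68% in the DMSO libraries. Rotenone replicate 1 had the lowest of all 10 values and the other 4 rotenone libraries the highest 4. Nfu_g_1_007569, rank 5, split the libraries in the same way at a lower level, with 0.347, 1.48, 1.30, 2.35 and 1.07% in the rotenone libraries against 0.483, 0.775, 0.563, 0.714 and 0.549% in the DMSO libraries. Nfu_g_1_003723 and Nfu_g_1_014209, rank 7 and rank 9, ran from 0.288% to 1.43% and from 0.235% to 1.39%, both lowest in rotenone replicate 1. The CV of the ratio of a gene to the rest of the block had a median of 21.4%, so the genes moved in the same direction but not in fixed proportion.

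Block A also held the 2 longest genes of the list, singled out here after their values were seen. Nfu_g_1_019261 had a recovered length of 88545 bases and Nfu_g_1_019276 one of 67190 bases, and no other gene of the list exceeded 12114. Nfu_g_1_019261 took 0.155, 0.507, 0.441, 0.554 and 0.456% of reads in the rotenone libraries, against 0.238, 0.225, 0.378, 0.438 and 0.386% in the DMSO libraries. Their ratio stayed between 1.21 and 1.48 in all 10 libraries, a CV of 6.19%.

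Block B was the largest and the steadiest, with 40 genes of similar share, none of them above rank 19 and 28 of them after rank 50. Their summed share was 8.68, 7.26, 7.71, 6.25 and 7.41% in the rotenone libraries, against 8.52, 7.41, 6.404, 7.92 and 8.32% in the DMSO libraries. The extremes differed only 1.39-fold, and both lay in the rotenone group. The CVs of the single genes ran from 9.17% to 16.6%. Relative to the rest of the block, most of that spread disappeared: the CV of a gene's ratio to the other 39 had a median of 3.34% and ran from 1.63% to 7.82%, where counting error was at most 0.669%. Of the 4950 pairs among the 100 genes, 448 kept a ratio with a CV under 5%, and 445 of these were pairs within block B. The steadiest pair, Nfu_g_1_015364 and Nfu_g_1_010114, kept a ratio of 1.24 to 1.30 in all 10 libraries (CV 1.81%), and is named for that. Nfu_g_1_019342, the most abundant gene of the block and the one with its widest range, took 0.458, 0.361, 0.389, 0.317 and 0.327% of reads in the rotenone libraries, against 0.455, 0.376, 0.279, 0.399 and 0.461% in the DMSO libraries. In block B, 21 of 40 genes were shorter than 1000 bases, against 26 of all 100. The extent of block B depended on how blocks were formed: 19 of its 40 genes stayed together with Spearman correlation, 19 with complete linkage and 20 without DMSO replicate 3.

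Block C comprised 8 genes led by Nfu_g_1_001437. Its summed share was 10.1, 3.62, 3.25, 5.75 and 5.88% in the rotenone libraries, against 7.64, 7.84, 6.598, 3.52 and 5.29% in the DMSO libraries. Rotenone replicate 1, the library lowest in block A, was highest in block C, and 7 of the 8 genes had their highest share there. Rotenone replicates 2 and 3 and DMSO replicate 4 were the 3 lowest. Nfu_g_1_014183, the gene of the block with the widest range, ran 4.98-fold, from 0.407% in rotenone replicate 2 to 2.03% in rotenone replicate 1. The other genes of the block among the first 10 of the list, Nfu_g_1_017106 and Nfu_g_1_017018, ranged 2.18-fold and 2.66-fold.

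Block D comprised 5 genes, and its summed share varied 23.5-fold, the most of the 5 blocks. It was 3.57, 0.877, 1.52, 3.85 and 3.78% in the rotenone libraries, against 1.08, 2.397, 4.17, 0.178 and 0.748% in the DMSO libraries. Both groups held high and low libraries, and all 5 genes were lowest in DMSO replicate 4. Its leading gene, Nfu_g_1_018490, took 0.960, 0.222, 0.484, 1.149 and 1.17% of reads in the rotenone libraries, against 0.257, 0.654, 1.19, 0.0358 and 0.208% in the DMSO libraries. Nfu_g_1_023149 and Nfu_g_1_013298, of the same block, kept a ratio of 1.07 to 1.25 across all libraries (CV 4.54%), although each of them varied with a CV near 70% (70.7% and 69.6%). They were singled out after their values were seen. These 3 genes were long, with recovered lengths of 9459, 6785 and 9137 bases. The remaining genes of the block were shorter, Nfu_g_1_022498 at 4162 bases and Nfu_g_1_006862, named after its values were seen, at 1344 bases. Both followed the block less closely, with CVs of 66.5% and 53.55% for their ratio to the rest of it.

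Block E comprised 5 genes led by Nfu_g_1_023427. Its summed share was 0.740, 0.451, 1.001, 1.94 and 2.51% in the rotenone libraries, against 1.41, 1.74, 1.91, 0.609 and 1.65% in the DMSO libraries. Rotenone replicates 4 and 5 were highest and rotenone replicate 2 and DMSO replicate 4 lowest. Nfu_g_1_012105 had the widest range of the block, 10.0-fold, from 0.0454% in DMSO replicate 4 to 0.455% in rotenone replicate 5. Block E was the loosest by the median CV of the ratio of a gene to the rest, 35.6%, although the highest single value was in block D.

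**Figure D3:**
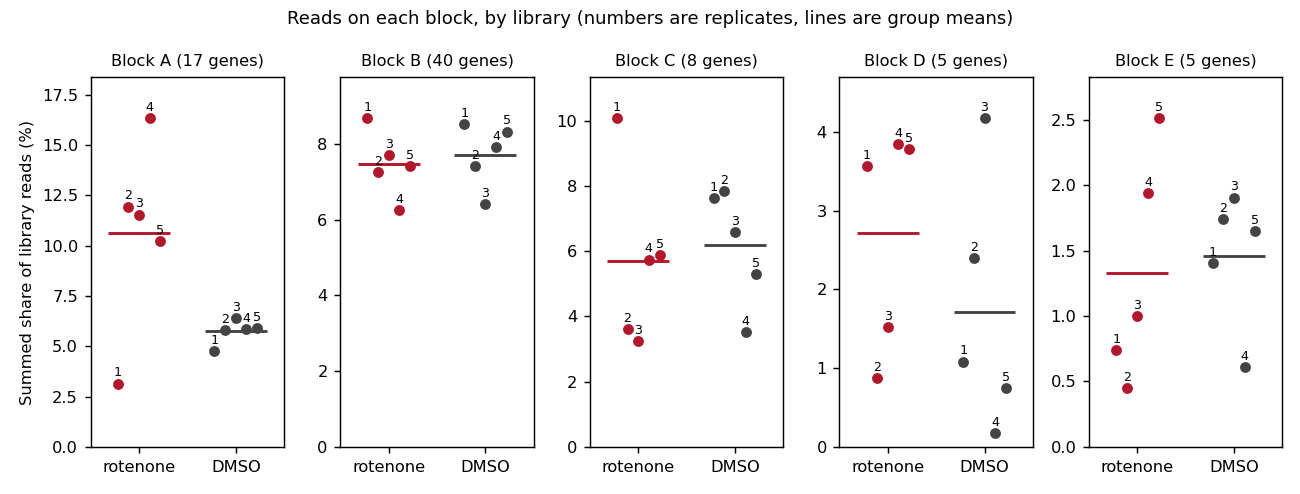
Points are the summed share of library reads (vertical axis, percent, each panel with its own scale from 0) of the genes of a block in each rotenone and DMSO library, numbered by replicate, and lines are group means. In block A rotenone replicates 2 to 5 (10.2% to 16.3%) stand above the DMSO libraries (4.77% to 6.41%) and rotenone replicate 1 (3.14%) below them; in blocks B to E the groups overlap.

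The 25 genes outside the blocks included those of rank 2 and rank 4, and 8 of them joined no other gene. Nfu_g_1_022849, rank 4, took 0.729, 2.75, 2.21, 2.65 and 1.66% of reads in the rotenone libraries, against 1.04, 0.968, 1.58, 2.82 and 1.45% in the DMSO libraries. Its highest share was in DMSO replicate 4 and its lowest in rotenone replicate 1.

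The difference between the group means in reads on the list lay in few genes, but not in the same genes in every rotenone library. The mean share was higher in rotenone libraries for 39 of the 100 genes, by 6.84 percentage points in sum, and lower for 61, by a sum of -1.30 points. Among all 18435 tested genes 33% had a higher mean share in rotenone libraries. Block A alone was 4.90 points higher in rotenone libraries, with all 17 of its genes higher, while the other 83 genes together took 27.1 ± 4.07% in rotenone and 26.4 ± 1.74% in DMSO libraries (SD, n = 5 each), a difference of 0.64 points. In rotenone replicate 1 block A took its lowest share of all libraries, 3.14%, and the other 83 genes their highest, 32.97%. The list as a whole took 36.1% of reads there, above every DMSO library (29.69% to 34.35%). Without rotenone replicate 1 the difference of block A was 6.77 points and that of the other 83 genes was -0.84 points. Without rotenone replicate 4, which had the highest share of block A, it was 3.47 points. Block D was 1.004 points higher in rotenone libraries, and blocks B, C and E differed by -0.25, -0.46 and -0.13 points. Each of these 4 differences was smaller than the SD of either group. With 1 library left out, that of block D ran from 0.619 points (without DMSO replicate 4) to 1.62 points (without DMSO replicate 3). Those of blocks B, C and E took both signs. Block B ran from -0.58 points (without DMSO replicate 3) to 0.05 points (without rotenone replicate 4), block C from -1.55 points (without rotenone replicate 1) to 0.15 points (without rotenone replicate 3), and block E from -0.43 points (without rotenone replicate 5) to 0.09 points (without rotenone replicate 2). With TMM-scaled CPM in place of shares, these 3 differences were 0.48, 0.08 and 0.04 points. Of the reads outside block A, the other 83 genes took 30.2 ± 3.64% in rotenone and 28.0 ± 1.82% in DMSO libraries (SD, n = 5 each), with overlapping groups.

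The 2 genes with the largest positive differences were Nfu_g_1_002091 and Nfu_g_1_007569, at 1.44 and 0.69 points, both of block A. The 2 with the largest negative differences were Nfu_g_1_001437 and Nfu_g_1_017106 of block C, at -0.29 and -0.22 points. Nfu_g_1_017106 took 0.982, 0.490, 0.450, 0.653 and 0.691% of reads in the rotenone libraries, against 0.982, 0.893, 0.934, 0.644 and 0.913% in the DMSO libraries, so the groups overlapped, and rotenone replicates 2 and 3 lay below every DMSO library. Of the 10 genes with the largest positive differences, which sum to 5.02 points, 7 were in block A and held 3.99 points. These 10 were picked for the difference that is summed, so the sum describes and tests nothing. They took 4.82% of reads in rotenone replicate 1 and 11.3% to 17.1% in the other rotenone libraries, against 4.87% to 8.245% in the DMSO libraries. The sum was 3.60 points without rotenone replicate 4 and 6.67 points without rotenone replicate 1.

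**Figure D4:**
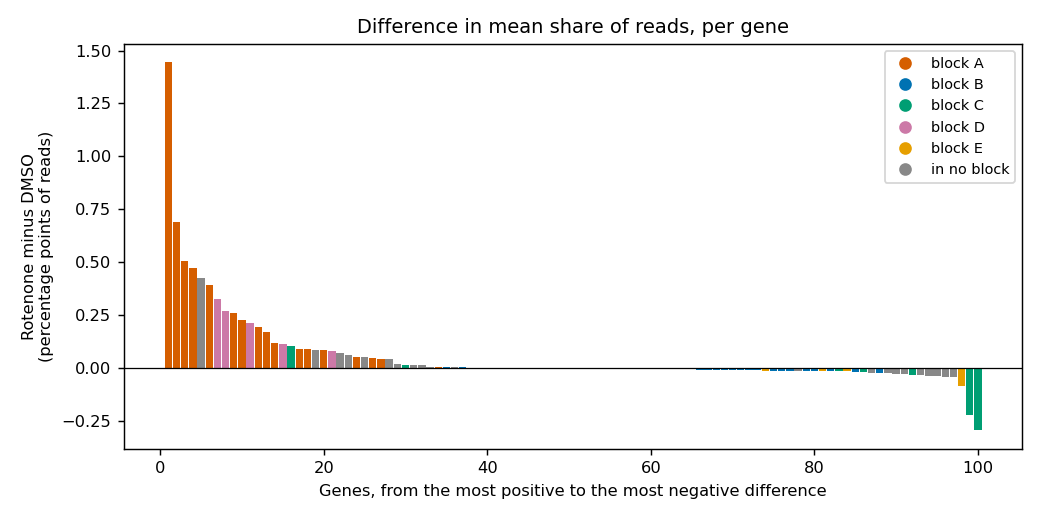
Bars are the difference in mean share of reads (vertical axis, percentage points, rotenone minus DMSO, 5 libraries each) of the 100 genes in order of that difference, coloured by block. The largest bar, Nfu_g_1_002091, is 1.44 points, most of the tall bars belong to block A, and the most negative bar is -0.29 points.

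In the test across all genes, 0 of the 100 genes passed an adjusted p under 0.05 (edgeR quasi-likelihood test with TMM scaling, Benjamini-Hochberg over 18435 genes), as did 0 of the 18435, which is 0% of the genes tested. Before adjustment, 15 of the 100 had an edgeR p under 0.05, all with a higher level in rotenone, where 7.66% of all tested genes reached it. Both figures are given for TMM scaling only, and whether this count follows the scaling was not tested. Of the 15 genes, 10 were in block A and 5 in no block. Because genes of a block move together, the 10 of block A are not separate results. DESeq2 called 2 of the 100 genes, against 1.16% of the genes to which it gave an adjusted p. The log2 fold change (rotenone over DMSO) was above 0 for 88 of the 100 genes with TMM scaling, against 55.4% of all tested genes. With library totals alone it was above 0 for 39, so this count follows the scaling. The median of all tested genes was 0.14 higher on the log2 scale with TMM than with library totals, where it was -0.11. By mean share, 33% of all tested genes were higher in rotenone libraries. The median log2 fold change was 0.12 in the 100 genes, 1.06 in block A and 0.09 in block B, against 0.03 in all tested genes. Among the first genes of the list, Nfu_g_1_002091 had a log2 fold change of 1.21 ± 0.39 (SE), Nfu_g_1_007569 one of 1.26 ± 0.43, Nfu_g_1_019825 one of 0.18 ± 0.11 and Nfu_g_1_001437 one of -0.02 ± 0.37. The edgeR adjusted p of these 4 genes ran from 0.471 to 0.995. The log2 fold change of Nfu_g_1_019825 was 0.0828 without rotenone replicate 1 and 0.0467 with library totals.

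The smallest p among the 100 genes belonged to Nfu_g_1_006531, rank 53, in no block, which is named because of that value. Its shares were 0.228, 0.243, 0.249, 0.229 and 0.204% in the rotenone libraries, against 0.183, 0.133, 0.151, 0.182 and 0.146% in the DMSO libraries. Every rotenone library stood above every DMSO library. Its level was 2425 ± 197 CPM in rotenone and 1511 ± 171 CPM in DMSO libraries (TMM-scaled, SD, n = 5 each), a log2 fold change of 0.68 ± 0.11 (SE) that did not pass in edgeR (adjusted p = 0.098) and passed in DESeq2 (adjusted p = 4.19e-06). Over the other edgeR fits the adjusted p ran from 0.0979 to 0.358. The other gene DESeq2 called was Nfu_g_1_019445 of block A, rank 11, with shares of 0.267, 1.05, 1.11, 1.33 and 0.809% in the rotenone libraries, against 0.295, 0.412, 0.454, 0.454 and 0.397% in the DMSO libraries. Of its rotenone values, 4 were above and 1 was below all DMSO values, and its log2 fold change was 1.35 ± 0.37 (SE; edgeR adjusted p = 0.346, DESeq2 adjusted p = 0.0429).

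The 5 rotenone values of TMM-scaled CPM lay wholly above the 5 DMSO values in 4 of the 100 genes, and wholly below in 0, against 0.732% of all tested genes above, 1.04% below and 1.77% in either direction. These 4 were Nfu_g_1_006531, Nfu_g_1_004836, Nfu_g_1_001024 and Nfu_g_1_008121, named after their values were seen, and none was in block A. For the last 3 the log2 fold changes were 0.24 ± 0.10, 0.33 ± 0.12 and 0.17 ± 0.10 (SE). With library totals they were 0.10, 0.19 and 0.03, and that of Nfu_g_1_006531 was 0.53. With library totals in place of TMM, the count was 1, Nfu_g_1_006531, against 2.15% of all genes. It was 2 with RLE scaling, against 1.81%, 2 with no count filter, against 1.54%, and 2 without DMSO replicate 4, against 3.23%. Without rotenone replicate 1 the count was 21, of which 20 were higher in rotenone and 16 were in block A, against 3.7% of all genes tested without that library. That share covers both directions: of 18753 genes tested, 349 lay wholly above and 345 wholly below. The library left out was the only rotenone library below the DMSO libraries in the summed share of block A. Genes of a block move together, so these 16 are not separate results.

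Levels can be compared between genes only per length. Gene lengths were recovered from the deposited counts and RPKM (reads scaled by gene length and library total), and counts per length were scaled to the same sum in every library (TPM, transcripts per 1e6 transcripts). Lengths of the 100 genes ran from 321 to 88545 bases, with a median of 1810 against 2717 in all tested genes. Of the 100 genes, 61 were also among the 100 highest by TPM. These 61 had a median length of 1128 bases and the other 39 one of 3852 bases. Of the 16 genes longer than 5000 bases, 2 stayed among the 100 highest. Division by length lowers long genes against short ones, so the direction of these differences was set in advance and is no finding.

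By TPM the first gene was Nfu_g_1_019445, 342 bases long and rank 11 by reads, at 44936 ± 19586 TPM in rotenone and 20848 ± 3680 TPM in DMSO libraries (SD, n = 5 each). Nfu_g_1_002091 followed at 26320 ± 11708 TPM in rotenone and 13410 ± 2920 TPM in DMSO libraries, and Nfu_g_1_019825 at 19719 ± 4682 TPM in rotenone and 19780 ± 1815 TPM in DMSO libraries. The mean TPM of Nfu_g_1_002091 and Nfu_g_1_019825, 19865 and 19750 over all 10 libraries, differed by less than the spread between libraries. The gene with the most reads, Nfu_g_1_001437, is 8522 bases long and stood at rank 26 by TPM. The 2 longest genes stood low by TPM: Nfu_g_1_019261 and Nfu_g_1_019276 averaged 73.7 and 73.5 TPM, at ranks 1283 and 1291. The 40 genes of block B together held 15.3% of TPM against 7.59% of reads, and 33 of them stayed among the 100 highest. The 17 genes of block A held 11.3% of TPM against 8.19% of reads, and 11 of them stayed. Blocks C and D held 2.89% and 0.809% of TPM against 5.95% and 2.22% of reads, and 5 of 8 and 1 of 5 genes stayed. These shifts from reads to TPM follow from the gene lengths used in the division.

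**Figure D5:**
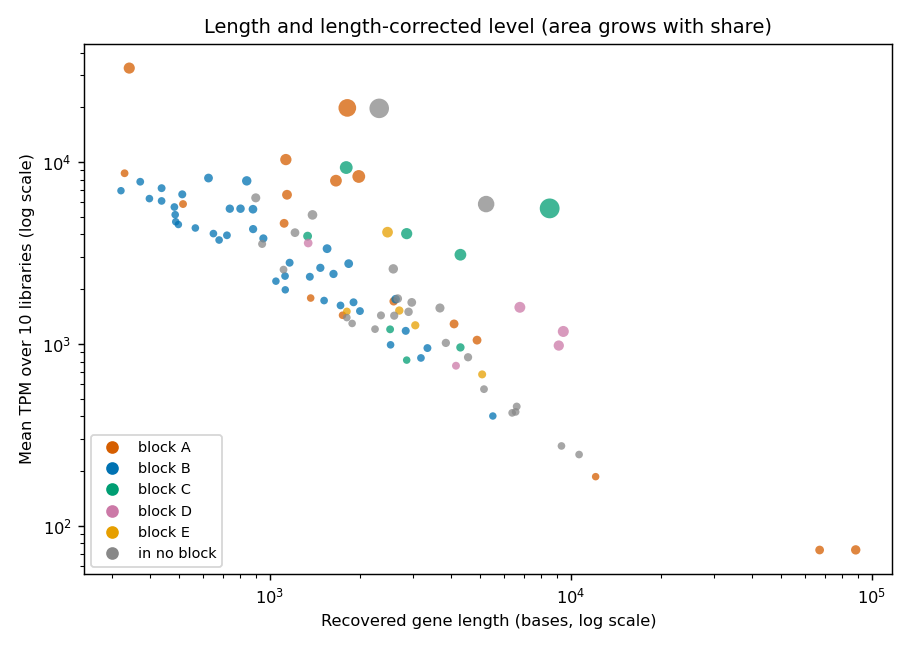
Each point is 1 of the 100 genes at its recovered length (horizontal axis, bases, log scale) and its mean TPM over the 10 libraries (vertical axis, log scale), coloured by block, with an area that grows with the share of reads. Genes of block B gather at short lengths (median 918 bases), and the 2 longest genes, of block A, lie lowest at 73.7 and 73.5 TPM.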

How the data were processed

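The authors deposited raw read counts per gene and RPKM values for 10 libraries, and the submitters' processing notes list, without roles, featureCounts 1.4.6-p4, STAR 2.4.1d and bcl2fastq 1.8.4. Library preparation used the TruSeq RNA v2 kit, which marks no strand, per the labels' protocols. Not given in the sources used here were the build, the annotation and the handling of reads with several matches. Overlapping, antisense or near-identical genes may therefore exchange reads.

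Deposited RPKM were checked against the counts in 4793 genes that passed 500 counts, and exceeded 1 RPKM, in each of the 10 libraries. With each column's own total, the implied gene length had a median CV of 31.4% between libraries. With the totals assigned in a cycle down the rows it was 0.00194%, and the lengths recovered this way were used. Of the 100 lengths, 99 lay within 0.3 base of a whole number, a window that would also take in most arbitrary values. The recovered lengths carry no correction for fragment length, so the TPM of short genes is approximate.

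Genes were filtered with filterByExpr (minimum count 10), scaled by TMM, and compared by edgeR 4.0.16 (quasi-likelihood test, robust fit) under R 4.3.3, rotenone over DMSO, two-sided, with no covariate. The alternatives were DESeq2 1.42.0, other scalings and filters, other ways of forming blocks, and each library left out. The edgeR step, the length recovery and the clustering were tested on simulated data. No 2 libraries of a group agreed within sampling noise (reduced chi-square over the 100 genes at least 2127).

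The members, lists and tests were chosen with earlier results of these data known. The genes named are the first 10, the leader and the widest-ranging gene of each block, the extremes of CV, of difference and of TPM, and the 2 genes on either side of rank 100. Genes added after their values were seen are said to be so. Counting errors (counting CVs) cover counting only, while each SD and SE carries the spread between libraries. Marker and pathway lists needed gene names and were not used.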

Additional observations from a re-analysis of the deposited data

Results flagged for a closer look

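Each of 66 sets of 5 values of a group was searched for a library standing well away from the remaining 4. The search found 5 of the 66, where chance alone flags about 1 set in 20. Nfu_g_1_019825 took 3.66% of reads in rotenone replicate 1, against 2.29% to 2.62% in the other rotenone libraries. Nfu_g_1_019261 took 0.155% in rotenone replicate 1, against 0.441% to 0.554% in the other rotenone libraries. Nfu_g_1_017106 took 0.644% in DMSO replicate 4, against 0.893% to 0.982% in the other DMSO libraries. Nfu_g_1_023427 took 0.313% in DMSO replicate 4, against 0.666% to 0.749% in the others. Nfu_g_1_022498 took 0.467% in DMSO replicate 3, against 0.000238% to 0.127% in the others. Of the 5 values, 4 came from rotenone replicate 1 and DMSO replicate 4. Some of the named genes were picked for extreme values, and genes of a block move together, so the flags are not independent. Whether these libraries stand apart as a whole was not tested.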

How the results depend on the processing

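No gene of the 100 was called by edgeR under any scaling, filter or left-out library tried. In the main edgeR fit, 0 of all 18435 tested genes were called either. How many of all genes the other edgeR fits called is not given here, so these zeros are not particular to the 100. DESeq2 called 2 of the 100, against 1.16% of the genes to which it gave an adjusted p. Genes with groups that do not overlap, 4 with TMM, numbered 2 with RLE scaling, 1 with library totals and 2 with no count filter. With a library left out they numbered 2 to 21, 21 without rotenone replicate 1 and 2 without DMSO replicate 4. The share over all tested genes moved as well. It was 1.77% with TMM, 1.81% with RLE scaling, 2.15% with library totals and 1.54% with no count filter. Without rotenone replicate 1 it was 3.7%, and without DMSO replicate 4 it was 3.23%. Log2 fold changes above 0 numbered 39 with library totals and 79 to 93 with a library left out. The median CV, 15.7% with shares, was 12.95% with TMM-scaled CPM and 12.6% with the SD of log2 CPM expressed as a CV. It was 13.7% to 16.4% with a library left out. The cause of these moves was not tested. There were 8 blocks with complete linkage (70 genes) and 7 with Spearman correlation (77 genes). A cut at 0.6 gave 6 blocks (86 genes) and a cut at 0.8 gave 4 (63 genes). Deviations from group means gave 4 blocks (75 genes). With a library left out there were 5 to 7 blocks, holding 72 to 78 genes. Of block A, 15 to 17 of 17 genes stayed together, and of block B 19 to 40 of 40. Of block C, 6 to 8 of 8 stayed together, and of blocks D and E 4 to 5 of 5 each. The block A difference ran from 3.47 to 6.77 points with a library left out. This alternative, and TMM-scaled CPM for the block differences, were chosen after seeing the data. Genes among the 100 highest by TPM numbered 60 to 62.

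With library totals, log2 fold changes turned negative for Nfu_g_1_014183 (-0.0491), Nfu_g_1_019342 (-0.0895), Nfu_g_1_012105 (-0.0733), Nfu_g_1_016692 (-0.00309), Nfu_g_1_007347 (-0.0432), Nfu_g_1_004314 (-0.12) and Nfu_g_1_021177 (-0.0227). Nfu_g_1_004314 also turned with RLE scaling (-0.00174) and DESeq2 (-0.00267). With a library left out, both signs occurred for Nfu_g_1_001437 (-0.26 to 0.15), Nfu_g_1_014183 (-0.35 to 0.32), Nfu_g_1_019342 (-0.057 to 0.0785), Nfu_g_1_023427 (-0.37 to 0.20), Nfu_g_1_012105 (-0.32 to 0.40) and Nfu_g_1_004314 (-0.0379 to 0.0461). None of these passed the test. No paired analysis was possible because the numbers in the titles of the rotenone and DMSO samples are not shared between the groups, and the replicate numbers used here only name libraries. Depth limited only Nfu_g_1_022498, at 51 reads in DMSO replicate 4.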

Other observations

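Among the 4950 pairs of the 100 genes, 3 pairs had the same recovered length, and 2 of the 3 were in block C, which holds 28 of the pairs. Nfu_g_1_017106 and Nfu_g_1_024908 both had 4306 bases, and Nfu_g_1_017018 and Nfu_g_1_021825 both had 2855 bases. Of these genes, Nfu_g_1_024908 and Nfu_g_1_021825 were added after their values were seen. Whether the genes of equal length are copies that share reads was not tested, since no sequence is tied to the identifiers here.

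A gene outside the list, Nfu_g_1_026254, named after its values were seen, had TPM rank 4 with a recovered length of 23 bases and rank 777 by reads. At such a length TPM is not a usable level, and 4 of the 39 genes that entered the 100 highest by TPM were under 300 bases, against 0 of the 100 most read genes.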
